A study of Mus musculus with 6 samples.

Results

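The Kruppel-like factors described here are 10 of the 9547 genes that could be named on these mouse arrays: Klf2, Klf3, Klf4, Klf5, Klf6, Klf7, Klf9, Klf10, Klf13 and Klf15. They were found by their accession or description among the 20868 distinct probes of the arrays that are not controls, where older names stand for Klf6 (Copeb), Klf9 (Bteb1) and Klf10 (Tieg). Each of the 10 genes had 1 probe, and each probe had 1 spot on an array. RNA came from skin keratinocytes of mice aged 7 weeks, freed with 0.25% trypsin and sorted by flow cytometry. Every sorted cell was positive for alpha-6 integrin, which ties basal keratinocytes to the basement membrane. The labels call those with the surface protein CD34 stem and progenitor cells and those without it basal cells. Neither a strain nor a sex is named in the labels, and no cells carried a named allele or received a treatment. Each of 3 biological replicates took up 2 arrays, a dye flip in which CD34+ and CD34- RNA shared every array, which gives 6 arrays and n = 3. Nothing in the labels says how many animals went into a replicate.

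Kruppel-like factors are transcription factors with zinc fingers at the carboxyl end that bind GC-rich and CACCC elements, and their different amino-terminal parts recruit activators or repressors. They are commonly grouped into factors that mostly activate, factors that bind the corepressor CtBP, and factors that bind the corepressor Sin3. In mouse epidermis Klf4 is known as a factor of the differentiating upper layers that the skin barrier needs, and Klf5 as a factor of proliferating epithelial cells.

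In CD34+ cells 1 of the 10 factors rose, 4 fell and 5 did not pass the test. Klf4 was the factor that rose, by 0.91 ± 0.23 on the log2 scale (SD, n = 3), which is 1.88-fold. Klf5 had the lowest ratio of the 10 factors, at -2.18 ± 0.69 or 4.54-fold lower, and Klf3, Klf6 and Klf2 fell by 1.09 ± 0.42, 1.09 ± 0.24 and 0.85 ± 0.23. Klf13 and Klf9 had negative ratios on every array and missed the threshold, and Klf10, Klf7 and Klf15 lay near 0. Passing means an adjusted p under 0.05 from limma with Benjamini-Hochberg adjustment over all 20214 probes tested. By that rule 12% of all probes passed, 5.38% as higher and 6.65% as lower in CD34+ cells. Among named genes with 1 probe each, 13.9% of 9301 passed, 5.85% as higher and 8.03% as lower.

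The upstream sequences of 4 of the 5 factors that passed are shown because the family binds GC-rich stretches of this kind and these factors moved in opposite directions. They run from 250 bases before to 50 bases after the gene's start, written 5′ to 3′ along the gene, and come from RefSeq (GRCm38.p6). Capitals mark CACCC, the classical element of the family, and GGGCGG, the GC box, each on either strand.
Klf4, chr4:55532426-55532725, minus strand: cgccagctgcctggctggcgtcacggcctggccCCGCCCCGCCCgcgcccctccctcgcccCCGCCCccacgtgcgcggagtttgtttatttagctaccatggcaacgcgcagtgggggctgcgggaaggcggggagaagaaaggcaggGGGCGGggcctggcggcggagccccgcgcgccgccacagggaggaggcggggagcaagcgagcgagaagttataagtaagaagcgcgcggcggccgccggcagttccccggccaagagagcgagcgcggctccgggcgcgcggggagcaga
Klf2, chr8:72318812-72319111, plus strand: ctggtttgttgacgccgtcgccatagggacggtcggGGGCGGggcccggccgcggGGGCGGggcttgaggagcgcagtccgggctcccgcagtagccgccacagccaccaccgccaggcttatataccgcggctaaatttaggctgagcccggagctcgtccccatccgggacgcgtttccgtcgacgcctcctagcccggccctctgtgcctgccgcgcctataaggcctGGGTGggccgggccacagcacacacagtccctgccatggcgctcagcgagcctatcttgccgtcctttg
Klf6, chr13:5861239-5861538, plus strand: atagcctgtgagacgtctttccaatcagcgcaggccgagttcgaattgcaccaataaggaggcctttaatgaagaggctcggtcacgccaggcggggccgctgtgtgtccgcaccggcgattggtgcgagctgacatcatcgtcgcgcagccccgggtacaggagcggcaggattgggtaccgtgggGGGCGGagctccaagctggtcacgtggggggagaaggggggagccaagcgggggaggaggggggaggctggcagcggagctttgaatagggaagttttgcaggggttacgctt
Klf3, chr5:64803271-64803570, plus strand: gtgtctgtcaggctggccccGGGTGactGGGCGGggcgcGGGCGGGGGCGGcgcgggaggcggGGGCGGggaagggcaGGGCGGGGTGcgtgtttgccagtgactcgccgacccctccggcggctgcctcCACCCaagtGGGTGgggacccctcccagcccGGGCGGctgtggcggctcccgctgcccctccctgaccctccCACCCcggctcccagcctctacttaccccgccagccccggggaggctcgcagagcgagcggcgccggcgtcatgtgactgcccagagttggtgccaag

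A window was held for 8 of the 10 factors, and Klf5 and Klf10 are the other two. The Klf4 window has 4 matches to GGGCGG and 0 to CACCC. The Klf3 window has 6 matches to GGGCGG and 5 to CACCC, with 1 of each overlapping the other. The windows of Klf2 and Klf6 have 2 and 1 matches to GGGCGG and 1 and 0 to CACCC. A further motif, CCAAT on either strand, which is not marked, has 4 matches in Klf6 and 0 in Klf2, Klf3 and Klf4. Of the factors that did not pass, Klf13 has 3 matches to GGGCGG, 1 to CACCC and 2 to CCAAT, and Klf9 has 0, 1 and 3. For Klf7 the matches to the same motifs in that order number 1, 3 and 0, and for Klf15 they number 1, 1 and 1. Unlike the other windows, those of Klf7 and Klf15 lie inside the span of the gene and not at its outer start. Of 32851 windows of this length in the table, 35.7% hold GGGCGG, 57.5% hold CACCC and 37.4% hold CCAAT. The 4 windows shown, of the 3 that fell and the 1 that rose, all hold GGGCGG, and a match describes the letters and shows no binding. Of their bases 74.3% (Klf4), 69.3% (Klf2), 63.0% (Klf6) and 76.7% (Klf3) were G or C. The shares over all windows were not matched for this.

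The labels were checked on Cd34, and Itga6, the gene of the alpha-6 integrin, was read beside it. The mean log2 ratio of Cd34 was 5.84 ± 0.43 (SD, n = 3, adjusted p 0.00365, limma). That of Itga6 was -1.18 ± 0.27 (adjusted p 0.0180) on its brighter probe and -0.79 ± 0.16 (adjusted p 0.0180) on the other. Both populations were sorted as positive for this integrin, so its ratio does not check the sort. The counts of markers that follow stand beside 5.38% of all probes higher and 6.65% lower in CD34+ cells. Of the bulge markers, genes of the hair follicle stem cell niche, 8 of 9 tested rose and 0 fell. The 8 include Cd34 itself, and the keratin Krt15 did not pass (0.77, adjusted p 0.0932, limma). Of the basal keratinocyte markers 2 of 5 rose, Col17a1 (0.67) and Itgb4 (0.38), and 2 fell, Itga6 and the keratin Krt14 (-1.11). Both rises lost their call under median centring (0.46 and 0.15, adjusted p 0.0665 and 0.523), and Krt14 lost its call with ratios scaled between arrays (adjusted p 0.0571). Between 92.9% and 97.7% of the probes on an array lay well above background in a population, so that mark alone is no evidence that a gene is expressed. In bulk RNA, fewer cells with a transcript and less of it per cell cannot be told apart.

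**Figure D1:**
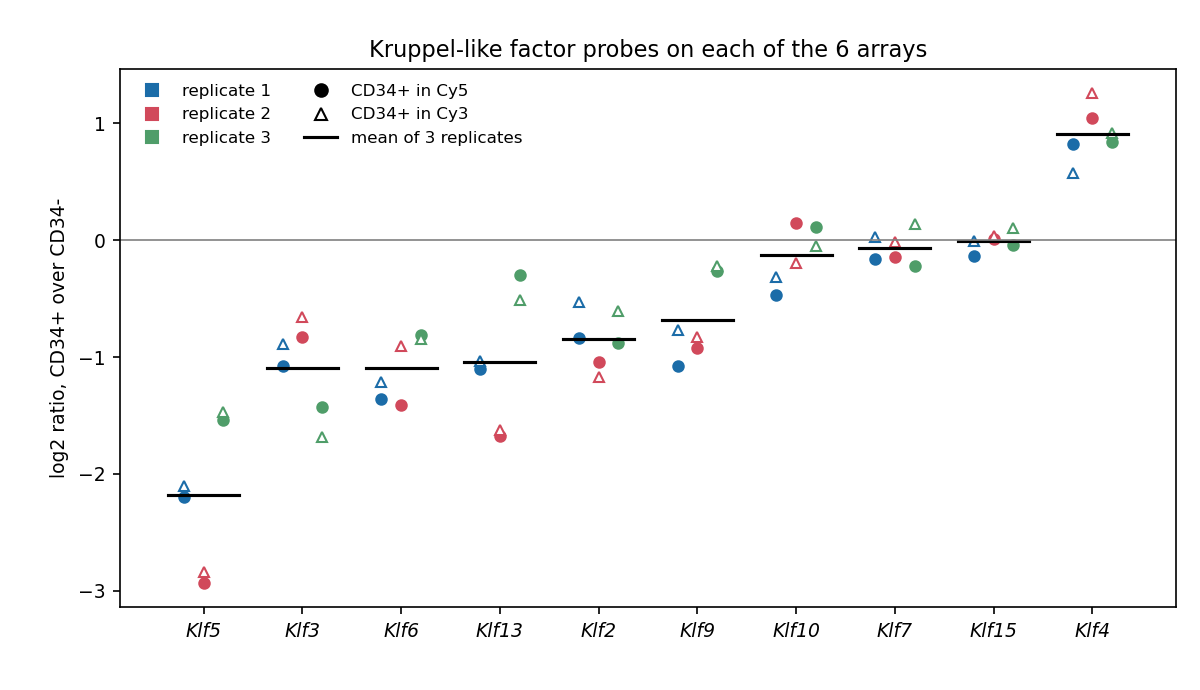
Log2 ratios of CD34+ over CD34- cells (vertical axis) for the 10 Kruppel-like factor probes, in order of their mean, on each of the 6 arrays. Colours are the replicates, circles have CD34+ cells in Cy5 and triangles in Cy3, and the bar is the mean of 3 replicates. All 6 points lie above 0 for Klf4 and below 0 for Klf5, Klf3, Klf6, Klf13, Klf2 and Klf9.

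Klf4 and Klf5 are both activators and are known for opposite effects on growth in epithelia. For Klf4 (RefSeq NM_010637) the log2 ratios of replicates 1, 2 and 3 were 0.70, 1.15 and 0.88. All 3 replicates and 6 of 6 arrays were on the side of CD34+ cells, where the 2 arrays of a replicate share their extracts. The mean of 0.91 had a 95% confidence interval of 0.64 to 1.18 and an adjusted p of 0.0200 (limma). It ranked 302nd from the top of the 20214 probes tested.

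The signal of the Klf4 probe was strong in both populations. Its normalised log2 channel intensity was 15.07, 15.07 and 15.10 in CD34+ cells and 14.37, 13.92 and 14.23 in CD34- cells. On this normalised scale the CD34+ values lay within 0.033 of each other, and the spread between replicates lay in the CD34- cells. Before normalisation the signal above background ran from 15970 to 51291 in CD34+ cells and from 16290 to 31590 in CD34- cells. The closeness of the CD34+ values thus holds only after normalisation. No pixel of the spot was saturated on any array, and its brightest mean signal was 51578 against a highest value of 65518 on these arrays. Under median centring, which does not correct for brightness, Klf4 was 0.48 higher with an adjusted p of 0.0596, a loss of the call. The 28 tested probes within 0.5 log2 units of its intensity had a median ratio of -0.19 with loess and -0.59 with median centring. Klf4 exceeded that median by 1.10 and 1.08 under the respective settings, a comparison chosen after the data were seen.

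For Klf5 (RefSeq NM_009769) the log2 ratios were -2.15, -2.89 and -1.51. Every replicate was lower in CD34+ cells, replicate 2 most and replicate 3 least. The mean of -2.18 had a 95% confidence interval of -2.93 to -1.43 and an adjusted p of 0.0236 (limma), and it was the 12th lowest ratio of the 20214 probes. The 2 dye orientations of a replicate gave values within 0.10 of each other, against 1.38 between the highest and lowest replicate. In CD34- cells the channel intensity of Klf5 was 10.29, 10.43 and 10.34. In CD34+ cells it was 8.14, 7.54 and 8.84. On the normalised scale the CD34- values were close together, so the spread of the ratio lay there in the CD34+ cells, the reverse of Klf4.

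**Figure D2:**
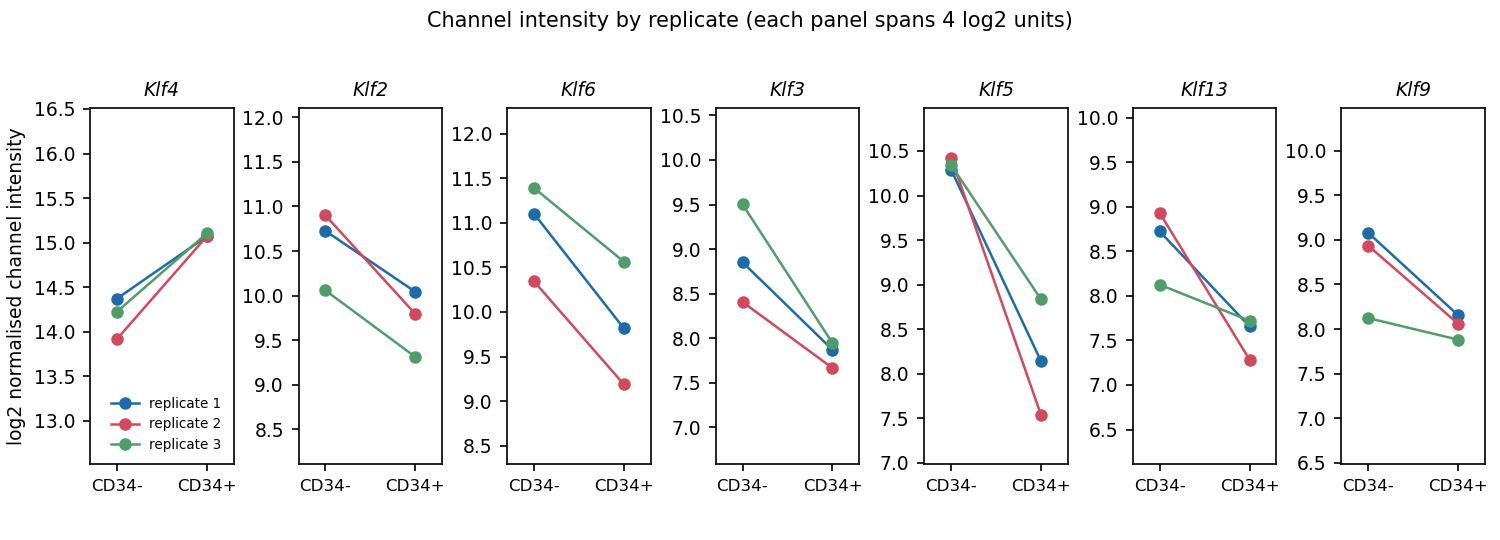
Normalised log2 channel intensity (vertical axis, different offsets but the same span of 4 log2 units in each panel) of 7 Kruppel-like factors in CD34- and CD34+ cells, with a line for each of the 3 replicates. The Klf4 lines meet at 15.07 to 15.10 in CD34+ cells, and the Klf5 lines start at 10.29 to 10.43 in CD34- cells and spread out in CD34+ cells. Intensities of different probes are not on a shared scale.

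The other activating members were Klf2, known from lung, blood vessels and resting T cells, Klf6, a broadly expressed factor induced by injury and known as a tumour suppressor, and Klf7, known from neurons. For Klf2 (RefSeq NM_008452) the log2 ratios were -0.68, -1.11 and -0.75. All were below 0, as were all 6 arrays. The mean of -0.85 had a 95% confidence interval of -1.12 to -0.58 and an adjusted p of 0.0213 (limma), which is 1.80-fold lower. Its channel intensity was 10.04, 9.79 and 9.31 in CD34+ cells and 10.72, 10.90 and 10.06 in CD34- cells. Replicate 3 was the lowest in both populations, and the populations did not overlap, though the lowest CD34- value and the highest CD34+ value lay close together.

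Because Klf2 is a gene of endothelium and T cells, the markers of these types are given beside it. Of 8 endothelial markers tested 0 passed, with 1 at an unadjusted p under 0.05 (30.7% of all probes lay there), and the one with the smallest adjusted p, Emcn, was at 0.41 (adjusted p 0.0824). The summed intensity of these 8 markers was 1005 to 1370 in CD34+ and 986 to 1253 in CD34- cells. Of 5 T cell markers tested 0 passed, with 2 at an unadjusted p under 0.05, beside the same 30.7%, and Cd3d was at 0.26 (adjusted p 0.0510). The summed T cell intensity was 2384 to 3313 in CD34+ and 1897 to 2901 in CD34- cells. Tek of the endothelial list and Ptprc of the T cell list were well above background on 2 of 6 arrays in each population and were not tested. The median ratio was 8.2e-05 for the endothelial and 0.21 for the T cell list. The part of these cell types in the Klf2 result was not tested.

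For Klf6 (RefSeq NM_011803) the log2 ratios were -1.29, -1.16 and -0.83. Each was below 0, and the values of the 2 dye orientations differed by up to 0.50, in replicate 2. The mean of -1.09 had a 95% confidence interval of -1.37 to -0.81 and an adjusted p of 0.0176 (limma), the smallest of the 10 factors. Its channel intensity was 9.82, 9.19 and 10.56 in CD34+ cells and 11.10, 10.34 and 11.39 in CD34- cells. Replicate 2 was lowest and replicate 3 highest in both populations, so the unpaired values of the populations overlapped while every paired difference had the same sign.

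Klf7 (RefSeq NM_033563) had log2 ratios of -0.067, -0.081 and -0.040. These lay close to 0, and 4 of 6 arrays were below it. The mean of -0.063 ± 0.021 had a 95% confidence interval of -0.18 to 0.054 and an adjusted p of 0.395 (limma), so a change beyond that interval was not seen and a smaller one could not be told from 0. On the 3 arrays with CD34+ cells in Cy3 alone the mean had the opposite sign, at 0.051.

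Klf3 is a repressor that works with CtBP and is known in mouse erythroid, fat and B cells. For Klf3 (RefSeq NM_008453) the log2 ratios were -0.98, -0.74 and -1.56. All 3 were below 0 and replicate 3 was the lowest, whereas replicate 3 had the value nearest 0 for Klf5, Klf6, Klf9 and Klf13. The mean of -1.09 had a 95% confidence interval of -1.56 to -0.63 and an adjusted p of 0.0325 (limma), the largest among the 5 that passed. Its channel intensity was 7.87, 7.67 and 7.95 in CD34+ cells and 8.85, 8.41 and 9.50 in CD34- cells. The 2 populations did not overlap even without regard to the pairing.

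Klf9, Klf10 and Klf13 belong to the members that bind Sin3 and mostly repress. Klf9 is induced by glucocorticoids in keratinocytes, Klf10 is an early response gene of TGF-beta, and Klf13 is known from T cells and heart. For Klf13 (RefSeq NM_021366) the log2 ratios were -1.07, -1.65 and -0.40. They were below 0 on 6 of 6 arrays, and the highest and lowest replicates lay 1.24 apart. The mean of -1.04 ± 0.62 had a 95% confidence interval of -1.71 to -0.36 and an adjusted p of 0.0734 (limma), which misses the threshold although the mean is close to those of Klf3 and Klf6. Without replicate 3 the mean was -1.36 with an adjusted p of 0.0121, without replicate 2 it was -0.74 (adjusted p 0.167), and without replicate 1 it was -1.03 (adjusted p 0.226).

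For Klf9 (RefSeq NM_010638) the log2 ratios were -0.92, -0.88 and -0.24. Replicates 1 and 2 were close together, and replicate 3 was nearer 0. The mean of -0.68 ± 0.38 had a 95% confidence interval of -1.10 to -0.26 and an adjusted p of 0.0669 (limma). Without replicate 3 it was -0.90 with an adjusted p of 0.00328, without replicate 1 -0.56 (adjusted p 0.221) and without replicate 2 -0.58 (adjusted p 0.253). In CD34- cells the channel intensity of Klf9 was 9.08, 8.94 and 8.12, and that of Klf13 was 8.72, 8.93 and 8.13. Replicate 3 was the lowest for both genes there. In CD34+ cells its Klf9 value, 7.88, was the lowest of 3 and its Klf13 value, 7.72, the highest.

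For Klf10 (RefSeq NM_013692) the log2 ratios were -0.39, -0.023 and 0.033. The replicates did not share a sign. The mean of -0.13 ± 0.23 had an adjusted p of 0.457 (limma) and a 95% confidence interval of -0.40 to 0.14. Its channel intensity was 10.53, 10.37 and 10.04 in CD34+ cells and 10.92, 10.39 and 10.01 in CD34- cells, so replicate 1 alone separated the populations.

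Klf15, a factor of metabolism in liver, muscle and fat that glucocorticoids induce, had the ratio nearest 0. For Klf15 (RefSeq NM_023184) the log2 ratios were -0.071, 0.026 and 0.032, on both sides of 0. The mean of -0.0041 ± 0.058 had an adjusted p of 0.963 (limma) and a 95% confidence interval of -0.13 to 0.13. Its signal above background lay between 50.3 and 122 on all arrays and in both populations, near the offset of 50 added before the log, which understates a ratio of so dim a probe.

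Ordered by ratio, the factors ran from Klf5 through Klf3, Klf6, Klf13, Klf2, Klf9, Klf10, Klf7 and Klf15 to Klf4. Neighbours in this order differed by more than the SD of their difference between replicates at 3 places. Klf9 lay below Klf10 by 0.55 (SD 0.29, in 3 of 3 replicates), Klf7 below Klf15 by 0.059 (SD 0.057, in 2 of 3) and Klf15 below Klf4 by 0.91 (SD 0.19, in 3 of 3). Klf5 lay below Klf3 by 1.09, which was within the SD of 1.10, and in replicate 3 the order of these genes was turned. The members with a negative mean numbered 9 of 10, beside 48.8% of all probes tested, and 7 of 10 had an unadjusted p under 0.05, beside 30.7% of all probes. The median ratio of the 10 was -0.76, beside 0.0040 for all probes tested. The 10 were chosen with earlier results of these data known, so these shares describe them and do not test the family.

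The scanner software gives a p-value of its own for each ratio, taken from an error model of the single array. In the authors' deposited files that p lay under 0.01 on 6 of 6 arrays for Klf2, Klf3, Klf4, Klf5 and Klf6. It did so on 5 arrays for Klf13, on 4 for Klf9 and on 1 for Klf10. For Klf7 and Klf15 it did so on 0 arrays. The share of all tested probes with such a p on all 6 arrays in 1 direction was 2.30% for higher and 3.13% for lower values in CD34+ cells.

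The calls depended on which replicate was left out. When replicate 1 was left out, none of the 10 factors and 0 of all 20214 probes passed (limma), although 4648 had an unadjusted p under 0.05. Without replicate 2 Klf5 alone passed, of 304 probes in all, and without replicate 3 all 5 passed together with Klf9 and Klf13, of 4243 probes. The direction of the 5 factors that passed was kept in all 17 alternatives, with ranges of 0.48 to 1.02 for Klf4, -2.52 to -1.83 for Klf5, -1.31 to -0.86 for Klf3, -1.22 to -0.99 for Klf6 and -0.93 to -0.71 for Klf2. Each had 1 sign on every array, so fits on some or averages of the arrays could not turn it. Changes of the filter on dim probes left these ratios as they were. Replicate 3 was read with another version of the scanner software than replicates 1 and 2, per the file headers, so the version and that replicate cannot be told apart.

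**Figure D3:**
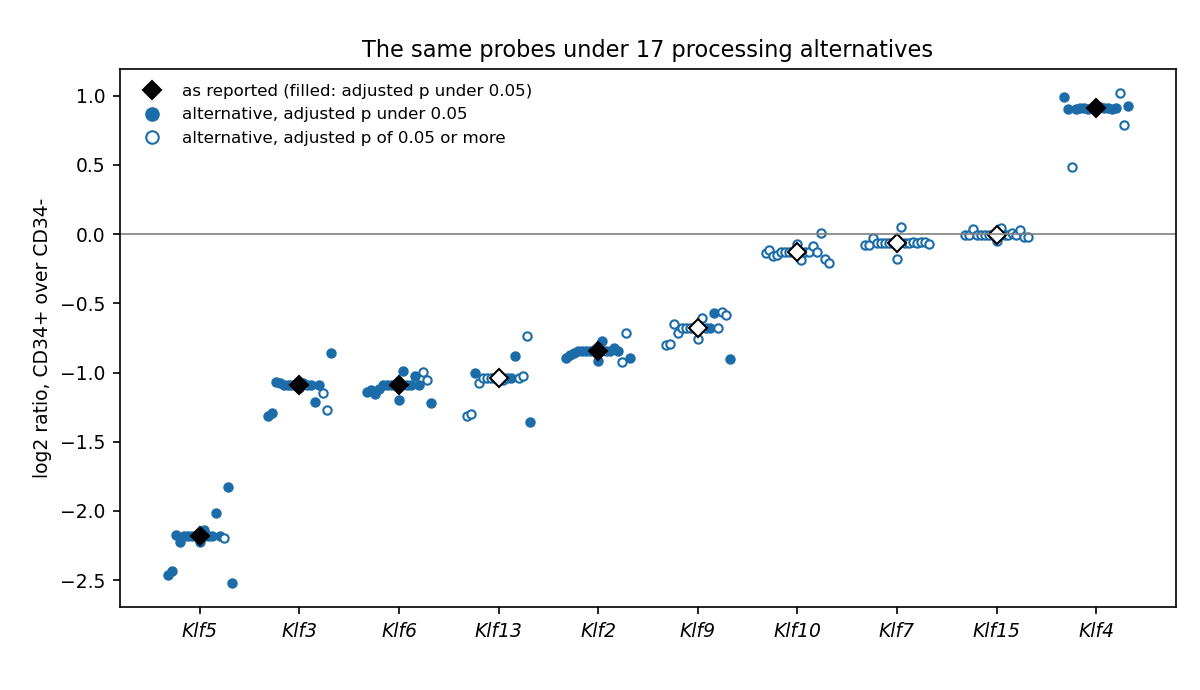
Log2 ratios of CD34+ over CD34- cells (vertical axis) of the 10 factors as reported (diamonds) and under 17 processing alternatives (circles), filled where the adjusted p was under 0.05. The 5 factors that passed stay on their side of 0 throughout, which fits on some of the arrays could not change. The lowest Klf4 value is 0.48, and Klf7, Klf10 and Klf15 lie close to 0.

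Other members of the family, set apart by a choice made with earlier results known, gave no call, where 12% of all probes passed. Of 11 other Klf and Sp genes on the array 10 were tested, and 0 passed in limma, with 5 at an unadjusted p under 0.05, beside 30.7% of all probes. Klf8 was left out for an outlier mark on 1 array. Of the relatives of Klf9 and Klf13 that bind Sin3, Klf16 was at -0.49 ± 0.29 (adjusted p 0.0777) and Klf11, another gene induced by TGF-beta, at -0.36 ± 0.24 (adjusted p 0.105). Klf12, a repressor that binds CtBP like Klf3, was at 0.060 ± 0.19. Klf17, known from germ cells and early embryos, was at 0.17 ± 0.094, and Klf1, the erythroid factor, at -0.036 ± 0.083. Sp1 and Sp3, ubiquitous factors of GC boxes, were at -0.23 ± 0.26 and -0.46 ± 0.39, but a dimmer Sp3 probe gave 0.010 ± 0.10. Sp7, the bone factor osterix, was at 0.21 ± 0.14, Sp4 at 0.095 ± 0.083 and Sp5 at -0.0037 ± 0.069. The median of these 10 genes was -0.020.

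Among genes whose proteins act with Kruppel-like factors or on their stability, 2 rose, 2 fell and 8 of 12 tested did not pass. Over all probes 5.38% rose and 6.65% fell. Fhl2, a LIM-domain cofactor, rose by 1.16 ± 0.32 (adjusted p 0.0208), and Kat2b, a histone acetyltransferase, by 0.43 ± 0.038 (adjusted p 0.0192). The ubiquitin ligase subunit Fbxo32, which targets KLF4 in human cells, fell by 1.17 ± 0.12 (adjusted p 0.00901). Fbxw7, the ligase subunit that targets Klf5 and Klf2, fell by 1.02 ± 0.15 (adjusted p 0.0125) on its brighter probe and was at -0.15 (adjusted p 0.123) on the other. The CtBP genes Ctbp1 and Ctbp2 were at 0.21 and 0.15 and the Sin3 gene Sin3a at -0.13, with adjusted p-values of 0.0865, 0.211 and 0.204. The median of the 12 was 0.0086, and 5 had an unadjusted p under 0.05 (limma), beside 30.7% of all probes.

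Of 16 tested regulators of keratinocyte differentiation 0 rose and 5 fell, beside 5.38% and 6.65% of all probes, and 11 did not pass. An unadjusted p under 0.05 (limma) was seen for 11 of the 16, beside 30.7% of all probes. Tfap2c, an AP-2 factor, fell by 1.95 ± 0.56 (adjusted p 0.0208), and Gata3, a zinc-finger factor of epidermis and inner root sheath, fell by 1.75 ± 0.45 (adjusted p 0.0192). The list's median was -0.37, and it was -0.62 with the deposited log ratios and -0.60 with an offset of 0. Klf4 thus stood on the other side of 0 from each of the 5 that fell, in a list chosen with earlier results known. The glucocorticoid receptor gene Nr3c1, which acts upstream of Klf9, was at 0.22 with an adjusted p of 0.0552.

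**Figure D4:**
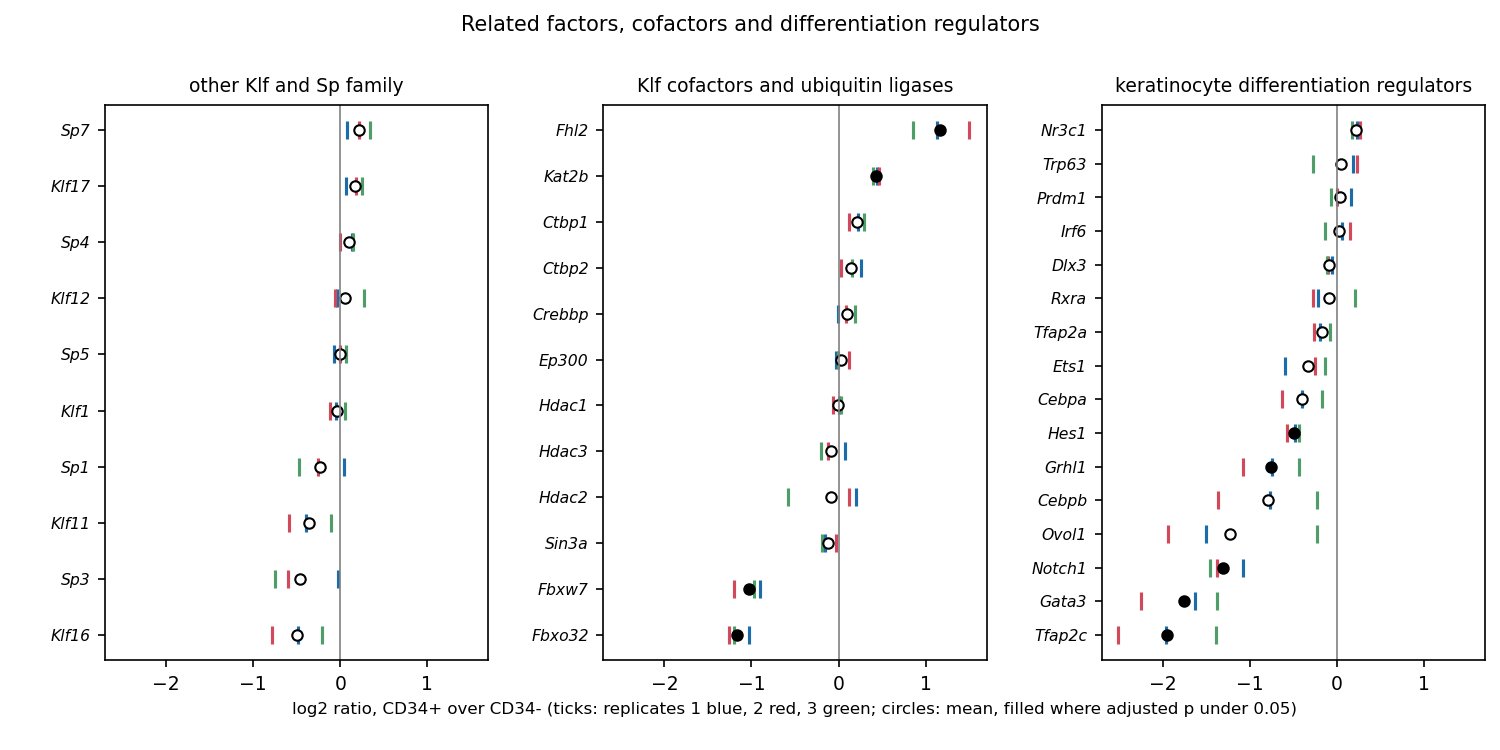
Log2 ratios of CD34+ over CD34- cells (horizontal axis) of the other Klf and Sp genes, of Kruppel-like factor cofactors and ubiquitin ligases, and of keratinocyte differentiation regulators, with ticks for the 3 replicates and circles for the mean, filled where the adjusted p was under 0.05. No circle is filled among the other Klf and Sp genes, 4 are filled among the cofactors and ligases, and the 5 filled regulators all lie below 0.

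Genes of the upper epidermis, the layers in which Klf4 acts, were mostly without a call. Of 24 tested cornified envelope and suprabasal genes 3 rose, 1 fell and 20 did not pass, with a median of -0.028. Over all probes 5.38% rose and 6.65% fell. Of the 24, 9 had an unadjusted p under 0.05 (limma), beside 30.7% of all probes. Lor, the envelope protein loricrin, rose by 1.51 ± 0.18 (adjusted p 0.00901) and Lce1b, a late envelope protein, by 1.00 ± 0.22 (adjusted p 0.0177). Krt1, the suprabasal keratin, fell by 2.28 ± 1.10 (adjusted p 0.0464) on its brighter probe and was at 0.17 (adjusted p 0.121) on the other, and the call was lost with ratios scaled between arrays (adjusted p 0.0608) and with CD34+ in Cy3 only (0.0503). The genes known to be active in these layers thus did not share a direction.

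Klf2, Klf4, Klf6 and Klf10 are known as genes that respond early to stimulation and to cell isolation, so other immediate early genes are given. Of 18 tested, 2 rose and 3 fell, beside 5.38% and 6.65% of all probes, 13 did not pass, and the median was -0.19. An unadjusted p under 0.05 (limma) was seen for 12 of the 18, beside 30.7% of all probes. The list's median was -0.55, -0.24 and -0.0048 in replicates 1, 2 and 3. Egr1 rose by 0.73 ± 0.31 (adjusted p 0.0401) and Jun by 0.29 ± 0.059 (adjusted p 0.0370). Socs3, an inhibitor of cytokine signalling, fell by 1.18 ± 0.45 (adjusted p 0.0319), and the stress factor Atf3 fell by 1.09 ± 0.29 (adjusted p 0.0207). Under median centring 1 rose and 8 fell, with a median of -0.49, and Jun was at 0.14 (adjusted p 0.467). Jun also lost its call with the deposited log ratios (adjusted p 0.0673), with an offset of 0 (0.0617) and with CD34+ in Cy3 only (0.0554). Egr1 lost its call with CD34+ in Cy3 only (0.0573) and Socs3 with ratios scaled between arrays (0.0543). The cells were kept in trypsin before the sort, and the part of the isolation in the ratios of Klf2, Klf4 and Klf6 was not tested.

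For the upstream signals of Klf9, Klf10 and Klf15, the glucocorticoid and clock genes had 2 rises and 2 falls among 16 tested. Their median was -0.030, and of all probes 5.38% rose and 6.65% fell. Sgk1, a kinase induced by glucocorticoids, rose by 1.05 ± 0.37 (adjusted p 0.0291) and the clock repressor Cry2 by 0.34 ± 0.066 (adjusted p 0.0296). Bhlhe40, a clock repressor, fell by 1.80 ± 0.71 (adjusted p 0.0335), and Tsc22d3, also induced by glucocorticoids, fell by 0.36 ± 0.038 (adjusted p 0.0229). Of 16 tested TGF-beta response genes 4 rose and 2 fell, beside 5.38% and 6.65% of all probes, with a median of -0.064. Ccn2, a matricellular protein, rose by 3.99 ± 0.27 (adjusted p 0.00358) and Tgfbi, a matrix protein, by 0.90 ± 0.20 (adjusted p 0.0188). The receptor Tgfbr2 fell by 0.58 ± 0.10 (adjusted p 0.0190) and the corepressor Tgif1 fell by 0.39 ± 0.13 (adjusted p 0.0375). Sgk1, Bhlhe40 and Tgif1 lost their calls with ratios scaled between arrays (adjusted p 0.0511, 0.0532 and 0.0605), and Cry2, Tsc22d3 and Tgfbi lost theirs under median centring (0.0577, 0.0544 and 0.0889), as did Tsc22d3 with CD34+ in Cy3 only (0.0554). Members of both lists passed in both directions. An unadjusted p under 0.05 (limma) was seen for 7 of the 16 glucocorticoid and clock genes. It was seen for 9 of the 16 TGF-beta response genes, beside 30.7% of all probes.

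Markers of further cell types that such a sort can hold were also read. Of 6 Langerhans cell markers 0 passed, with 0 at an unadjusted p under 0.05, beside 30.7% of all probes, and H2-Ab1 was at -0.30 (adjusted p 0.259). The replicates differed, with list medians of 0.098, -0.72 and -0.20 in replicates 1, 2 and 3. The summed intensity of the 6 markers was 1223 to 2070 in CD34+ and 1485 to 2351 in CD34- cells. Of 5 fibroblast markers the collagen gene Col1a2 rose, by 1.02 ± 0.11 (adjusted p 0.0104), and the summed intensity was 995 to 1298 and 738 to 922. Of 5 melanocyte markers Mitf and Dct rose, by 0.99 ± 0.31 (adjusted p 0.0257) and 0.79 ± 0.29 (adjusted p 0.0325), with summed intensities of 734 to 1131 and 552 to 778. Both lost their call with ratios scaled between arrays (adjusted p 0.0560 and 0.0555), and Mitf also with CD34+ in Cy5 only (0.0553). The fibroblast and melanocyte markers that passed had the direction of Klf4, but 4 of 5 and 3 of 5 did not pass. The medians of these lists were 0.074 and 0.042, and of all probes 5.38% rose and 6.65% fell. In each list 2 of 5 had an unadjusted p under 0.05 (limma), beside 30.7% of all probes. The part of these cell types in the ratio of Klf4 was not tested.

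For each factor that passed, the named genes with the most similar values over the 6 arrays were found by the root mean square difference of the log2 ratios. Nearest to Klf4 were Gadd45g (0.14), a growth arrest gene, the collagen gene Col7a1 (0.15) and Tgfbi (0.21). Nearest to Klf5 were Ly6c1 (0.13), a surface protein, the decoy receptor gene Il1r2 (0.13) and Tcim (0.17). Klf2 was nearest to Gltp (0.12), a glycolipid transfer protein, to the DNA polymerase gene Pole (0.12) and to the centromere gene Cenph (0.14). Klf6 was nearest to Guca2a (0.15), to the mitotic kinesin gene Kif20a (0.15) and to Pdlim1 (0.16). Klf3 had the most distant neighbours of the 5, Atf3 (0.22), Mpp6 (0.27) and the cyclin gene Ccnd2 (0.29). The measure compares only level and pattern of the ratios, and 2 arrays of a replicate share their extracts.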

How the data were processed

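The authors hybridised 500 ng of amplified total RNA, as 750 ng of each labelled cRNA, for 17 hours on 2-colour oligonucleotide arrays, per the labels. The deposited scanner files give an intensity of each spot and of its background, a log10 ratio of Cy5 over Cy3 and a p-value from the software's error model, all from Agilent Feature Extraction, per the file headers. The series also has a deposited table of values, which are that log10 ratio with its sign turned (largest difference 0), and its column medians were 0.00257, 0, 0, 0.00274, 0 and 0.00187. Replicates 1 and 2 are numbered in the labels, and the 2 unnumbered arrays, of opposite dyes, were taken as replicate 3 by elimination.

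From the intensities, limma 3.58.1 in R 4.3.3 applied normexp with an offset of 50 and loess within arrays, with control and outlier-marked spots at weight 0. Ratios were turned to CD34+ over CD34-, spots and then the 2 arrays of a replicate were averaged, and the 3 values were tested against 0 with lmFit and eBayes. P-values and intervals rest on the spread between these 3 replicates, which eBayes draws toward the spread typical of all probes. An interval can therefore be narrower or wider than the printed SD alone would give. The offset understates changes of dim probes. A probe was kept where 1 population was well above background in 2 or more replicates, on at least 1 array of each. This left out 472 of 20868 probes, 182 more had an outlier mark, and 20214 were tested. The populations are paired within each array by the labels. Deviations of a replicate's 2 channels correlated across probes with r of 0.799, 0.718 and 0.811, but the channels share spots, so this does not test for shared animals. Channel intensities came from Aquantile scaling after loess. The fit was tested on simulated data.

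Of the probes, 8947 were named by RefSeq accession, 367 and 358 by a symbol or synonym in the description and 27 by the description itself, and 11169 stay unnamed. Lists use a gene's brightest probe. Named were all members, the other Klf and Sp genes, up to 2 rises and 2 falls of each further list or its smallest adjusted p, the 3 nearest genes of each passing member, Cd34 and Itga6. A plot shows every tested member of 3 lists, and Ctbp1, Ctbp2, Sin3a and Nr3c1 were named after their values were seen. Members and lists were chosen with earlier results of these data known. The detail of detection on 1 array and the 27 names by description were settled after values had been seen. Alternatives changed the ratios, background, normalisation, filters, dyes, pairing, software version and replicates. Figures were drawn with matplotlib.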

Additional observations from a re-analysis of the deposited data

How the results depend on the processing

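The number of factors passing stayed between 4 and 7 of 10 in all but 3 of the 17 alternatives. With the populations as unpaired channels and no replicate block, 549 probes and 2 factors (Klf4 and Klf5) passed, where 2433 and 5 passed in the paired fit, and Klf2, Klf3 and Klf6 had adjusted p-values of 0.222, 0.110 and 0.295. With 6 arrays and a dye term 4284 probes and 7 factors passed, and with a term for the software version 4792 and 7. Leaving out 1 replicate at a time gave 0 to 4243 probes and 0 to 7 factors. Klf3 lost its call with CD34+ in Cy3 only (adjusted p 0.0514). Klf4 lost it and Klf13 gained one (adjusted p 0.0494) under median centring. A factor near 0 turned its sign in 6 cases over 4 fits, none past the threshold: Klf15 was at 0.035 with median centring, 0.045 with CD34+ in Cy3 only, 0.0050 with the version term and 0.029 without replicate 1 (leaving out 1 replicate gave -0.022 to 0.029), Klf7 at 0.051 with CD34+ in Cy3 only, and Klf10 at 0.0048 without replicate 1 (range -0.21 to 0.0048). Of the 30 passing list genes that the naming rule chose, 30, 18 and 0 lost their call without replicates 1, 2 and 3, 16 lost it without the replicate block, and 0 turned their sign. Each of the 30 had 1 sign on every array, so fits on some of the arrays could not turn it. Detection on both arrays of a replicate, added after the data were seen, gave 2471 probes of 19658 and the same 5 factors. The cause of these differences was not tested, except that fewer replicates leave fewer degrees of freedom. The dimmest signals above background were those of Klf15, at 50.3, and Klf13, at 79.8, and with an offset of 0 Klf13 and Klf3 were at -1.30 and -1.30.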
